A study of Homo sapiens with 4 samples.

Results

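The map described here holds the N6-methyladenosine (m6A) peaks of OMM2.3 cells, an established line of human uveal melanoma with the genotype wt per the labels, after 24 h with DMSO, the solvent control (NC). Its members are the unique peaks of the control list, taken by chromosome, start, end and strand and grouped by the gene the authors assigned. There were 22067 such peaks, of 41996 in both peak lists of the series, and they lay in 9522 genes. They rest on 2 of the 4 libraries: 1 input library of fragmented poly(A) RNA, which gives transcript levels, and 1 library of the same kind of RNA after immunoprecipitation with m6A antibody beads (RIP). The other 2 libraries come from cells given MA for 24 h and enter no comparison here. The cells are 1 established line, and with 1 library of each kind no test between samples exists. Every value below therefore describes these libraries, and each 95% interval is an exact Clopper-Pearson interval that covers counting error over genes or peaks only.

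m6A is the commonest internal modification of messenger RNA. A nuclear writer complex built around METTL3 and METTL14 deposits it, FTO and ALKBH5 can remove it, and reader proteins such as the YTH family bind it and act on splicing, export, translation and decay. In mammalian cells it is known to gather near stop codons, in 3' UTRs and in long internal exons. Antibodies to m6A also bind m6Am, a related mark that can sit on the first transcribed base next to the cap where that base is A.

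Because of that last property, the RefSeq start sequences of highly expressed genes are shown first, from 10 bases before the annotated start to 20 bases from it, with the first transcribed base in capitals (RefSeq, GRCh38.p14). The first 4 are the genes with the highest transcript levels that had a 5' UTR peak and a matched start.
RPL41: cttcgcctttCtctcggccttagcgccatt
TMSB10: ccgctcttttGtttcttgctgcagcaacgc
S100A1: cagctccagcAgccacatttgcaaccttgg
PTMA: ccgcgtgagtCccccactggctgctctgaa
The next 4 are the genes with the highest levels that had no peak at all.
RPS18: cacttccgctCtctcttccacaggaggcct
GSTP1: cgaggccttcGctggagtttcgccgccgca
GAPDH: gtgcatccctGtccggatgctgcgcctgcg
MIF: gcgggaccacAgtggtgtccgagaagtcag
The first 4 windows lie at chr12:56116623-56116652 (RPL41), chr2:84905646-84905675 (TMSB10), chr1:153628424-153628453 (S100A1) and chr2:231708515-231708544 (PTMA), all on the plus strand. The others lie at chr6:33272065-33272094 (RPS18), chr11:67583802-67583831 (GSTP1), chr12:6535254-6535283 (GAPDH) and chr22:23894373-23894402 (MIF), also on the plus strand. Each spans the promoter's end and the start of the first exon for 1 RefSeq start per gene, which need not be the gene's outermost one. Each set holds 1 start with A among its 4, so these examples alone do not separate the sets. The share over all matched genes is given further below.

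Most markers of the melanocyte lineage were present in the control cells. All 10 markers of a core set were at 1 FPKM or more (reads or fragments scaled to gene length and library total), led by the pigment-cell structural protein PMEL at 4027 FPKM, the melanin enzyme TYRP1 at 1921 and the lineage transcription factor SOX10 at 488. In the longer melanocyte list used further below, OCA2 (0.00513 FPKM), SLC45A2 (0.370) and TRPM1 (0.0768) were under 1 FPKM, and KIT was not analysed here. Of the markers of other cell types, LUM, a matrix proteoglycan of fibroblasts, was at 4.96 FPKM. The others in the gene table, 3 fibroblast, 1 immune, 1 endothelial and 5 epithelial markers, lay between 0.0154 and 0.278 FPKM. The input total behind the FPKM scale was 37041597. The RIP depth is not given in the sources used here.

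Most expressed genes were methylated by this measure. At 1 FPKM or more, 8403 of 10039 genes had at least 1 peak, 83.7% (83.0 to 84.4), and 1636 had none. The share was highest at middle transcript levels and lowest at the top. It was 81.2% (78.6 to 83.5) of 1004 genes at 1 to 2 FPKM, stayed between 85.4% and 89.3% from 2 to 32 FPKM, and then came down step by step. It was 77.6% at 32 to 64 FPKM, 69.1% at 64 to 128, 63.0% at 128 to 256 and 47.2% (40.3 to 54.1) of the 212 genes at 256 or more. These top genes had the most reads behind them, a median of 30002 recovered reads against 249 at 1 to 2 FPKM. Below 1 FPKM, 27.7% of 3549 genes had a peak, at a median of 19.0 recovered reads.

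**Figure D1:**
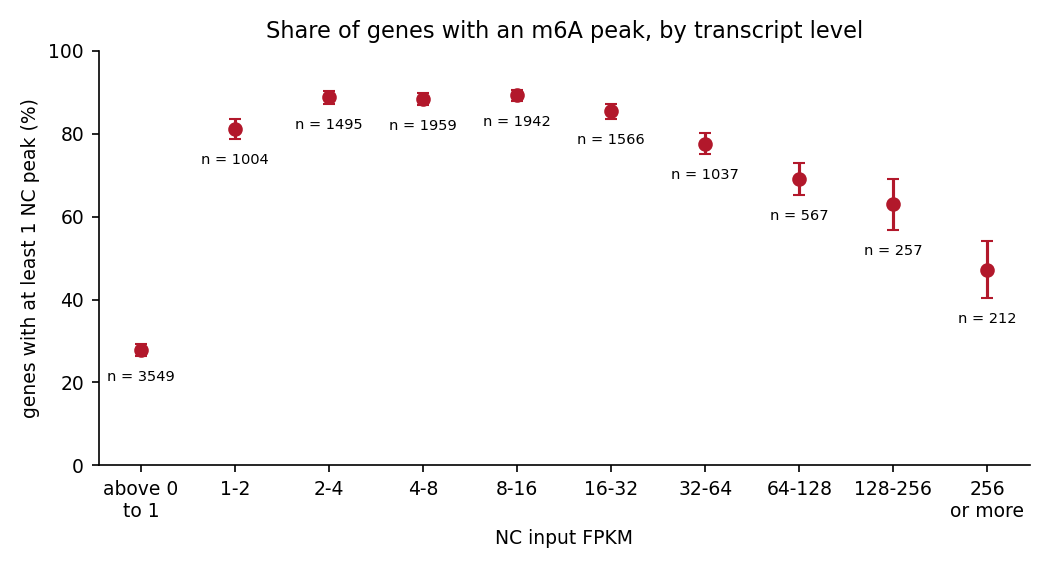
Share of genes with at least 1 control peak (vertical axis, percent) in doubling bins of control input FPKM (horizontal axis). Points are shares, bars exact 95% intervals and n the genes in the bin: the share is between 81.2% and 89.3% from 1 to 32 FPKM and 47.2% at 256 or more.

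Genes without a peak thus had the higher transcript levels. Their median was 17.5 FPKM, against 9.04 for genes with a peak, a difference of 0.89 on the log2(FPKM + 1) scale. The most abundant genes without a peak included RPS18 (4818 FPKM), GSTP1, GAPDH, RPL8, RPS2, MIF, RPL3 and RPS15 (2725). Among these are 5 ribosomal protein genes, the detoxifying enzyme GSTP1, the glycolytic enzyme GAPDH and the cytokine MIF. The 10 most abundant with a peak were PMEL (4027 FPKM), GDF15, EEF2, FTH1, RPL13A, TUBB, ACTB, EEF1G, RPL7A and EEF1A1 (1917). Here stand the stress cytokine GDF15, the iron store subunit FTH1, cytoskeletal tubulin and actin, and 3 translation elongation factors. Their peaks were few and shallow: each had 1 or 2, and the highest fold enrichment of RIP over input, the authors' value for each peak, was 2.87 (GDF15).

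At like transcript level, genes without a peak were shorter. Exonic length, recovered from the FPKM values, had a median of 2514 bp without a peak and 3747 bp with one at 8 to 16 FPKM. At 256 FPKM or more the medians were 965 and 1844 bp. That bin is open at the top and its groups were less alike in level, with median FPKM of 627 without a peak and 441 with one. The median without a peak was the lower one in each of the 9 FPKM bins from 1 FPKM up, and the same held for the RefSeq gene span, with 22577 against 32196 bp at 8 to 16 FPKM. The quartile ranges overlapped in every bin, so length did not separate the groups gene by gene.

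**Figure D2:**
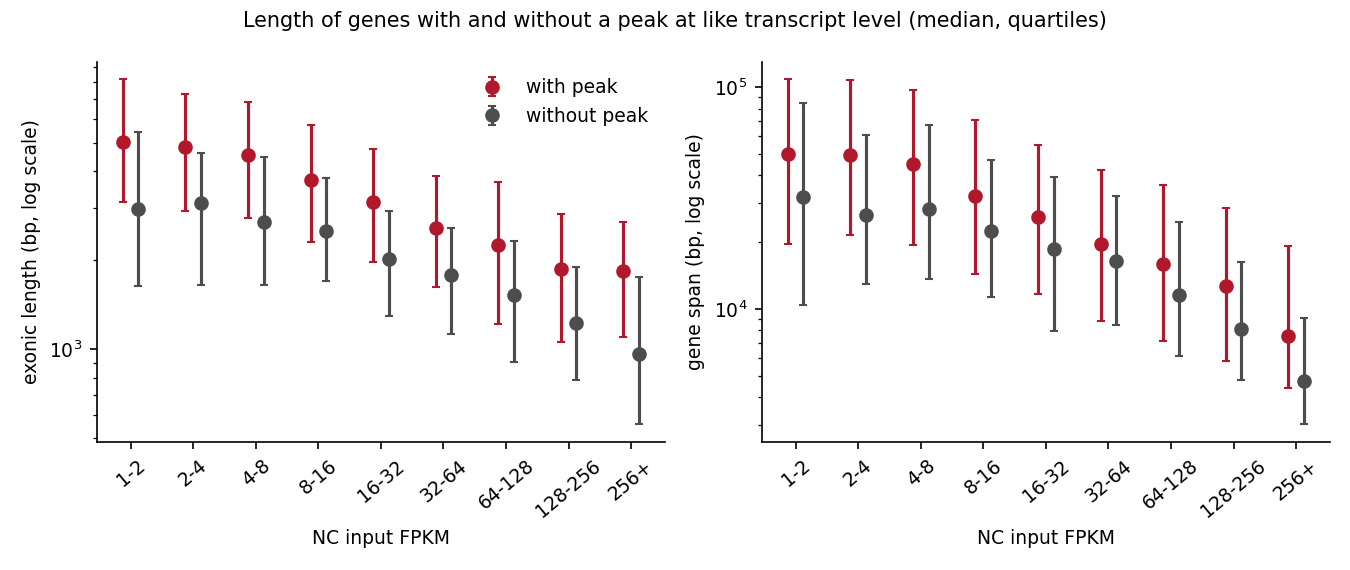
Exonic length recovered from the FPKM values (left) and RefSeq gene span (right), both in bp on log axes, for genes with a peak (red) and without one (grey) in bins of control input FPKM. Points are medians and bars quartiles: in each bin the median without a peak is lower, for example 2514 against 3747 bp of exonic length at 8 to 16 FPKM.

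Sorted by exonic length, 62.1% of 839 genes under 1000 bp had a peak, then 73.1%, 83.1% and 91.4% in the classes 1000 to 2000, 2000 to 4000 and 4000 to 8000 bp, and 96.7% of 1144 genes at 8000 bp or more. The share varied with both: at 64 FPKM or more the share was 46.3% (40.4 to 52.3) under 1000 bp and 87.9% (80.1 to 93.4) at 4000 to 8000 bp. At 1 to 8 FPKM the same classes stood at 65.3% and 90.0%. Recovered lengths are minima and can be a whole fraction of the true length. Of 8401 genes with a peak, 259 had more summed peak length than recovered length, which shows only the plainest cases. The short classes therefore hold some longer genes, and comparisons matched on length carry the same error.

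Some long genes had no peak. Among genes at 5 FPKM or more, those with the largest span and no peak were SGCD (sarcoglycan delta, 12.5 FPKM), EXOC4 (exocyst subunit, 8.91), NBAS (a vesicle tethering subunit, 7.99), RELN (the matrix protein reelin, 8.14) and BABAM2 (a DNA repair complex member, 27.5). SGCD spans 1039957 bp, and its recovered exonic length, a minimum, is 1879 bp. RELN, at 11708 bp, also belongs to the 5 longest by exonic length, with DYM, RNF130, TBCD and LAMA5, which were chosen after their values were seen. These last 5 had recovered exonic lengths from 11573 to 14655 bp at 5.01 to 10.2 FPKM.

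Where genes had peaks, they usually had more than 1. Of the 8403 expressed genes with a peak, 37.5% had 1 peak, 28.9% had 2, 15.7% had 3, 8.60% had 4 and 2.61% had 7 or more, with a mean of 2.36. Over all expressed genes, 52.3% had at least 2 peaks and 7.79% at least 5. The mean per peak gene was 2.66 at 2 to 4 FPKM and 1.37 at 256 or more. By exonic length it went from 1.55 under 1000 bp to 3.96 at 8000 bp or more.

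The genes with the most peaks encode large proteins. DST, a cytoskeletal linker at 3.47 FPKM, had 25 peaks, the most of any gene, and is named after its value was seen. At 5 FPKM or more, AHNAK2, a giant scaffold protein, had 23 peaks at 7.61 FPKM, and the ubiquitin ligase RNF213 had 16. The histone methyltransferase KMT2A and the cytoskeletal crosslinker MACF1 followed with 14 each. ASH1L, another histone methyltransferase, the centrosome scaffold PCNT and the actin-binding SVIL had 12 each, and the cadherin FAT1 and the chromatin-associated DIDO1 had 11 each. In AHNAK2, 22 of the 23 peaks were annotated Exon, a class of the authors' annotation that the sources used here do not define further. PCNT and DIDO1 were spread more widely, with 4 of 12 peaks in the 5' UTR in PCNT and 4 of 11 in the 3' UTR in DIDO1.

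By position, the 3' UTR held the most peaks. It had 9296 peaks, 42.1% (41.5 to 42.8), before Exon with 33.8%, 5' UTR with 14.4%, start codon with 6.06% and stop codon with 3.54%. The fewest peaks, those over stop codons, were the most enriched, with a median fold of 4.11. The median was 3.77 in the 3' UTR, 3.50 in Exon and 3.33 in both the 5' UTR and start codon classes. Stop codon peaks were also the longest, with a median exonic length of 399 bp against 250 bp over start codons. Of the 3' UTR peaks, 79.9% lay within 1 exon, against 30.6% of start codon peaks.

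Seen by gene, 73.2% of expressed peak genes had a peak over the stop codon or in the 3' UTR, 45.0% one in Exon and 41% one in the 5' UTR or over the start codon. Genes with peaks at the 3' end only were the largest class, 29.8% (2506 genes), and 10.2% had peaks in all 3 places. Of all expressed genes, 57.8% had a 3' UTR peak, 37.7% an Exon peak, 25.1% a 5' UTR peak, 12% a start codon peak and 6.69% a stop codon peak.

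Position moved with the number of peaks and with transcript level. Exon peaks were 19.6% (18.2 to 21) of the peaks of genes with 1 peak and 42.2% (41.1 to 43.3) of those of genes with 4 or more, while 3' UTR peaks went from 52.7% to 36.6%. In the 5251 genes with several peaks, the most enriched one lay in the 3' UTR in 48.1%, above the 40.7% of all their peaks that lie there. It lay in Exon in 26.6%, below the 35.2% of all their peaks. The first share of each pair counts genes and the second counts peaks, so genes with many peaks weigh more in the second. The part of this in the gaps was not tested. By level, the Exon share was 40.6% at 1 to 2 FPKM and 24.2% (22.1 to 26.5) at 32 to 64, its lowest, and then 25.4%, 26.6% and 31.4% (23.7 to 39.9) in the bins above. Start codon peaks went from 4.41% at 1 to 2 FPKM to 11.3% (9.05 to 13.8) at 64 to 128, with 10.4% and 8.76% (4.61 to 14.8) above that, and the 3' UTR share stayed between 35.8% and 44.7% throughout.

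**Figure D3:**
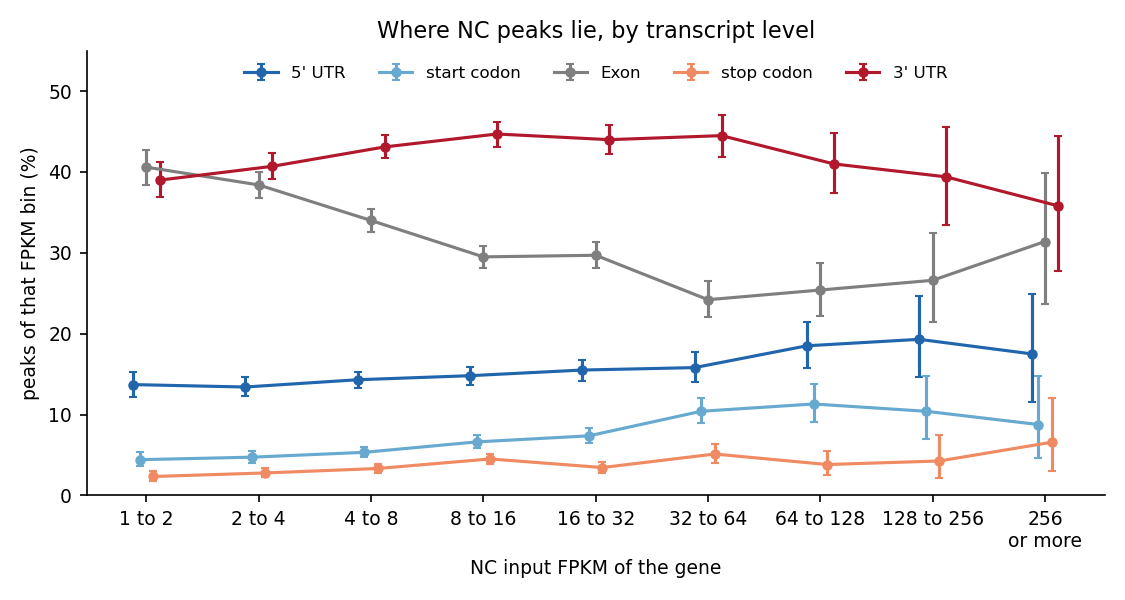
Share of the peaks of each FPKM bin (vertical axis, percent) that the authors placed in each of 5 features, by control input FPKM of the gene (horizontal axis). Points are shares and bars exact 95% intervals: Exon comes down from 40.6% to 24.2% between 1 and 64 FPKM and is 31.4% at 256 or more, and start codon goes up from 4.41% to 11.3% by 64 to 128 and is 8.76% at 256 or more.

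Fold enrichment was lower in abundant transcripts. The median fold was 4.50 at 1 to 2 FPKM, 3.41 at 8 to 16 and 2.33 at 256 or more. At 1 to 2 FPKM, 53.2% of the folds were exact whole numbers as deposited, against 3.65% at 256 or more. At a fold of 4 or more, 49.9% of expressed genes had a peak.

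Peaks of high fold were found in each feature among genes at 5 FPKM or more. Some of the 5 highest per feature, ranked by fold alone, are given here. Outside the coding region, the highest 5' UTR peaks were in SDCBP (syntenin, fold 20 at 87.4 FPKM), ANKRD50 (an endosomal recycling protein, 18) and the autophagy-related kinase ULK3 (16). The peak of ANKRD50 lay at chr4:124710068-124711263 on the minus strand within 1 exon (GRCh38.p13). Over stop codons the highest were in CNOT2, a subunit of the CCR4-NOT deadenylase (fold 16.8, chr12:70354645-70354943, plus strand), the ubiquitin ligase RNF169 (15.0) and the small GTPase RHOJ (13). All 5 of the highest stop codon peaks lay within 1 exon. In the 3' UTR, below SBF2 (24.0) and CABLES2 (21), TEF, a circadian transcription factor, had a peak of fold 19.5, CDR2L one of 19.0 and the SMN complex member GEMIN6 one of 17.0. In Exon, GTF2I had the highest fold of the whole list, 55.0, and KIAA1549L followed with a peak of 2292 bp and fold 30.3. The authors' p-value was weaker for this GTF2I peak than for the CNOT2 and SBF2 peaks, so fold alone does not rank the evidence. Over start codons MEMO1 had one of fold 24.0 and ZFAND3 one of 15.0.

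Genes of the m6A machinery had peaks too. Every expressed writer, eraser and reader had one, and lists this small could not have stood above the share at like FPKM. All 9 writer genes had a peak (66.4 to 100.0%), beside 86.3% of genes at like FPKM. They held 30 peaks, 3.33 each, against 2.05 at like FPKM and 2.46 with length. METTL3, the catalytic subunit, was at 33.6 FPKM with 2 peaks of at most fold 2.87, over the start codon and in the 5' UTR. Its partner METTL14, at 2.17 FPKM, had 5 peaks, 4 of them in the 3' UTR, up to fold 9.50. WTAP, the regulatory subunit that holds the complex in nuclear speckles, had 5 peaks up to fold 8.00, and VIRMA, its large scaffold, also had 5. ZC3H13 had 6, among them one of 4146 bp of exonic length at chr13:45963873-45999687 (minus strand) with a fold of 12. RBM15, which guides the complex to RNA, had an Exon peak of 2431 bp at chr1:110339873-110345573 with a fold of 14.5. CBLL1 and RBM15B had 1 peak each and the separate methyltransferase METTL16 had 3.

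Both erasers had a peak, beside 87.1% of genes at like FPKM. ALKBH5, at 23.4 FPKM, had 4 peaks, 3 in the 3' UTR and 1 in Exon, the highest at fold 5.71. FTO, at 2.15 FPKM, had 2, in the 5' UTR (fold 4.43) and the 3' UTR (2.62). FTO and METTL14, at 2.15 and 2.17 FPKM, were the lowest of the writers and erasers.

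All 11 expressed readers had a peak (71.5 to 100.0%), beside 80.0% of genes at like FPKM. The nuclear reader YTHDC1 led with 6 peaks, in the 5' UTR, Exon and 3' UTR, up to fold 10.0 at 6.36 FPKM. The cytoplasmic readers YTHDF1 (42.8 FPKM), YTHDF2 (48.4) and YTHDF3 (9.80) had 2, 1 and 2 peaks. IGF2BP2, which stabilises its targets, had 5 peaks and IGF2BP3 had 3. PRRC2A, at 142 FPKM, had 4 peaks, all in Exon, and HNRNPC, at 115, had 3. HNRNPA2B1, the most abundant reader at 162 FPKM, had 1, of fold 3.24. For writers, erasers and readers alike the share at like FPKM lay within the exact interval although every expressed member had a peak. At these numbers the comparison could not show a higher share, so it does not tell these lists from other genes.

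Transcripts often assayed for m6A were mixed: 6 of 8 had a peak, 75.0%, beside 69.5% of genes at like FPKM. SON, a splicing protein, had 7 peaks up to fold 5.44, and the acetyltransferase CREBBP and the miRNA-processing enzyme DICER1 had 5 each. MYC had 3, over the start codon (5.00), in Exon (2.93) and in the 3' UTR (4.25). ACTB had 2 and EEF1A1 had 1, none above fold 2.53, and GAPDH (4018 FPKM) and HPRT1 (20.4) had none.

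Among 28 gene lists, 26 had at least 3 expressed members and were set beside all genes at like FPKM, whose share is the mean over the members' FPKM bins. That share lay below the list's exact interval in 3 lists and above it in 2, with no correction for the number of lists. The 2 lists with fewer methylated members encode short, abundant transcripts. Of the cytosolic ribosomal proteins, 26 of 78 had a peak, 33.3% (23.1 to 44.9), beside 51.2% at like FPKM. Their median level was 849 FPKM, within the open bin of 256 or more, where the medians were 441 FPKM with a peak and 627 without. They are thus matched only loosely in level, and they are themselves among the genes of that bin. The part of level within this bin was not tested. Of the nuclear-encoded respiratory chain subunits, 29 of 76 had one, 38.2% (27.2 to 50.0), beside 69.7%. With matching on exonic length as well, in coarser FPKM classes, these comparison shares were 57.5% and 63.5%, still above both intervals.

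Within these lists a few members stood out. RPL22, at 208 FPKM, had 1 peak of fold 6 in the 3' UTR, RPL4 (809 FPKM) one of 5.33, and RPL28 (201 FPKM) had 2. The most abundant respiratory genes without a peak were COX8A (573 FPKM), ATP5ME (447) and ATP5F1B (441), subunits of cytochrome oxidase and ATP synthase. SDHC, a subunit of succinate dehydrogenase, had 3 peaks in the 3' UTR, of fold 2.00, 4.00 and 10.0.

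The 3 lists with more methylated members were zinc finger genes named ZNF, heat shock proteins and aminoacyl-tRNA synthetases. ZNF genes, many of them DNA-binding repressors, had a peak in 237 of 240, 98.8% (96.4 to 99.7), beside 86.1% at like FPKM and 86.3% with length. They carried 3.02 peaks each against 2.18. ZNF142 had 11, up to fold 32, ZNF618 had 9 and ZNF24 had 8, and the 3 without a peak were ZNF580, ZNF414 and ZNF143. Transcription regulators of any family named in the authors' gene table showed a like share, 450 of 466 (96.6%), beside 83.1% of the other genes, without matching on FPKM and with some ZNF genes counted in both.

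The heat shock list holds chaperones and co-chaperones and also the regulators HSF1 and HSF2. It had a peak in 19 of 20, 95% (75.1 to 99.9), beside 71.8% at like FPKM. DNAJB1 (58.5 FPKM), HSP90B1 (188), HSPH1 (10.3) and HSPD1 (154) had 3 peaks each, none above fold 3.38. HSPB1, at 853 FPKM, was the single member without one. Aminoacyl-tRNA synthetases, which charge transfer RNAs, also had 19 of 20, beside 68.8%. AARS1, LARS1 and EPRS1 had 4 peaks each and FARSA none. This last list was no longer set apart at a fold of 2 or more, with 75.0% (50.9 to 91.3) beside 57.6%. Nor was it when length was matched too in coarser FPKM classes, at 77.0%. The length-matched share of heat shock genes was 75.0%, just below the interval's lower end of 75.1%.

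**Figure D4:**
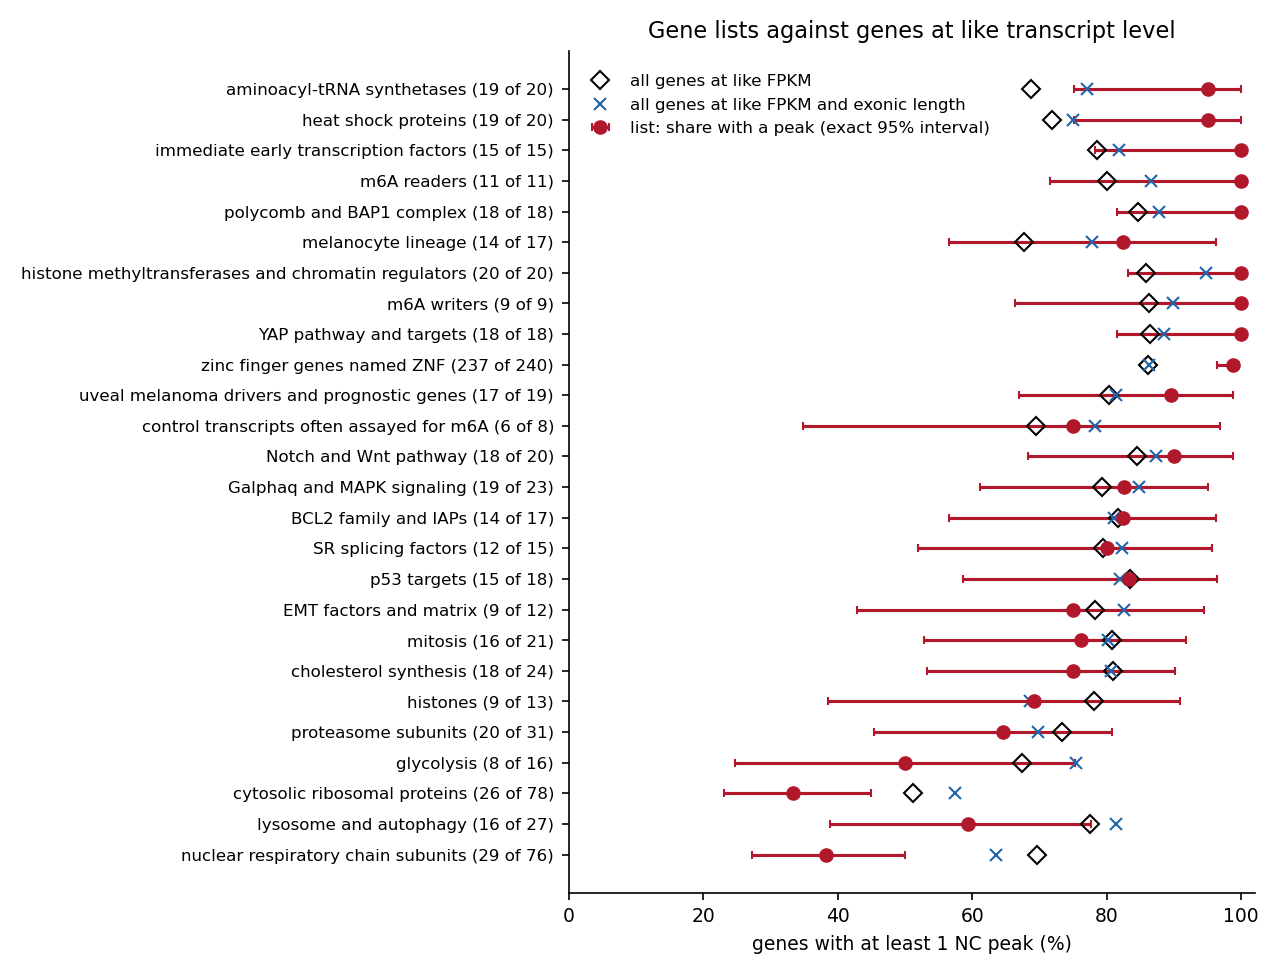
Share of expressed members with at least 1 control peak (horizontal axis, percent) for 26 gene lists. Red points are list shares with exact 95% intervals and open diamonds all genes at like FPKM. Crosses are all genes matched on exonic length and coarser FPKM classes: ribosomal and respiratory chain genes lie left of both marks, and ZNF genes right of both.

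Chromatin genes had the highest mean number of peaks per expressed gene among the lists with expressed members. All 20 histone methyltransferases and other chromatin regulators had a peak (83.2 to 100.0%), beside 85.8% at like FPKM and 94.7% with length. They carried 6.25 peaks each, against 2.04 at like FPKM and 3.44 at like FPKM and length, and 73.6% of their 125 peaks were in Exon. KMT2A had 14 peaks, KMT2C 12, KMT2D 11 and SETD2, which methylates H3K36, 9. In KMT2C, 10 of 12 peaks were in Exon, with folds up to 17.0. Polycomb and BAP1 complex genes had a peak in 18 of 18 (81.5 to 100.0%), beside 84.7% at like FPKM, with 2.50 each against 1.93 at like FPKM and 2.36 with length. With all peaks counted, neither of these lists could have stood above the share at like FPKM, since every expressed member already had a peak. ASXL1 and ASXL2, partners of the deubiquitinase BAP1, had 6 each. BAP1 itself had 1, in the 3' UTR at fold 2.20.

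The lineage and driver genes of uveal melanoma were not set apart from other genes at these numbers. Of 17 expressed melanocyte genes 14 had a peak, beside 67.7% at like FPKM, a share inside the interval of 56.6 to 96.2%. DCT, a melanin enzyme at 191 FPKM, had 3 peaks, MITF, the master regulator, 2 in the 3' UTR, and SOX10 2, of which one over the start codon spanned 1592 bp of exonic length at fold 3.50. PMEL and TYR had 1 each, and TYRP1 (1921 FPKM), GPNMB (632) and GPR143 (95.3) had none. Of the 19 uveal melanoma driver and prognostic genes 17 had a peak, beside 80.4% at like FPKM. GNAQ and GNA11, the G protein subunits mutated in this tumour, had 3 peaks each, SF3B1 had 3, PRAME 2 and EIF1AX 1, and the splicing factor SRSF2 (107 FPKM) and LTA4H (15.5) had none.

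Signalling lists were not set apart either with all peaks counted. Every expressed YAP and immediate early member had a peak, so at these numbers neither list could have stood above the share at like FPKM. Galphaq and MAPK genes had a peak in 19 of 23, beside 79.3% at like FPKM, led by the phosphatase DUSP4 with 7 peaks and the exchange factor TRIO with 6, while MAP2K2 and RHOA, both above 200 FPKM, had none. YAP pathway genes had one in 18 of 18, beside 86.4%, led by TEAD1 with 6, and Notch and Wnt genes in 18 of 20, beside 84.5%, led by APC2 with 11 and APC with 8. The immediate early list, which counts MCL1 and IER3 beside transcription factors, had one in 15 of 15 (78.2 to 100.0%), beside 78.6%. In it KLF6, FOSL2 and NR4A1 had 4 each. With peaks of fold 2 or more this last list still had a peak in all 15, beside 70.6%, and was then set apart. JUN had 3, up to fold 6.20.

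Glycolysis and lysosome lists had lower shares than genes at like FPKM, inside wide intervals. Glycolysis genes had a peak in 8 of 16, 50.0% (24.7 to 75.3), beside 67.4%. SLC2A1, the glucose transporter, and the hexokinase HK1 had 3 peaks each, while ENO1 (903 FPKM) and LDHB (380.0) had none. Lysosome and autophagy genes had one in 16 of 27, 59.3% (38.8 to 77.6), beside 77.5%, and CTSD and SQSTM1, both above 200 FPKM, had none. With length matched too, both lists were set apart, with comparison shares of 75.4% and 81.3%. That match used coarser FPKM classes, open from 64 FPKM up, so the part of length in this shift was not tested. With 20 equal FPKM bins neither list was set apart, and at 5 FPKM or more the lysosome list was. Mitosis genes had one in 16 of 21, 76.2% beside 80.8%, with 67.4% of their peaks in Exon: the kinesins CENPE and KIF11 had 7 and 6, and CDC20, PLK1 and CCNB1 none.

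In the remaining lists the share at like FPKM also lay within the exact interval. Proteasome subunits had a peak in 20 of 31 (64.5%, beside 73.4% at like FPKM), histones in 9 of 13 (69.2%, beside 78.1%) and p53 targets in 15 of 18 (83.3%, beside 83.5%). BCL2 family and IAP genes had one in 14 of 17 (82.4%, beside 81.7%) and cholesterol synthesis genes in 18 of 24 (75.0%, beside 80.9%). SR splicing factors had one in 12 of 15 (80.0%, beside 79.4%) and EMT and matrix genes in 9 of 12 (75.0%, beside 78.3%). Named members include the splicing scaffold SRRM2 with 10 peaks, all in Exon, and the survival factor BCL2 with 4. VIM, the intermediate filament of mesenchymal cells at 1479.6 FPKM, had none.

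The first transcribed base differed a little between classes of genes. Of the 10039 expressed genes, 8373 (83.4%) were matched to a RefSeq start. That base was A in 49.7% (47.5 to 51.8) of 2100 genes with a 5' UTR peak, in 43.8% (42.4 to 45.2) of 4898 with peaks elsewhere only, and in 39.8% (37.2 to 42.4) of 1375 without a peak, beside 44.4% of all 35116 starts in the RefSeq table. At 8 to 64 FPKM the 3 shares were 49.7%, 43.0% and 38.3%, and at 64 or more 47.0%, 39.2% and 32.6%. At 1 to 8 FPKM they were 50.0%, 45.5% and 46.3%, so the classes without a 5' UTR peak were not ordered there. In each of the 3 FPKM ranges at least 1 pair of neighbouring classes had overlapping intervals. C followed by A across the start went the same way, in 36.0%, 32.7% and 28.9%. Whether the 5' UTR peaks hold m6Am was not tested, and RefSeq starts need not be the starts used in these cells.

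**Figure D5:**
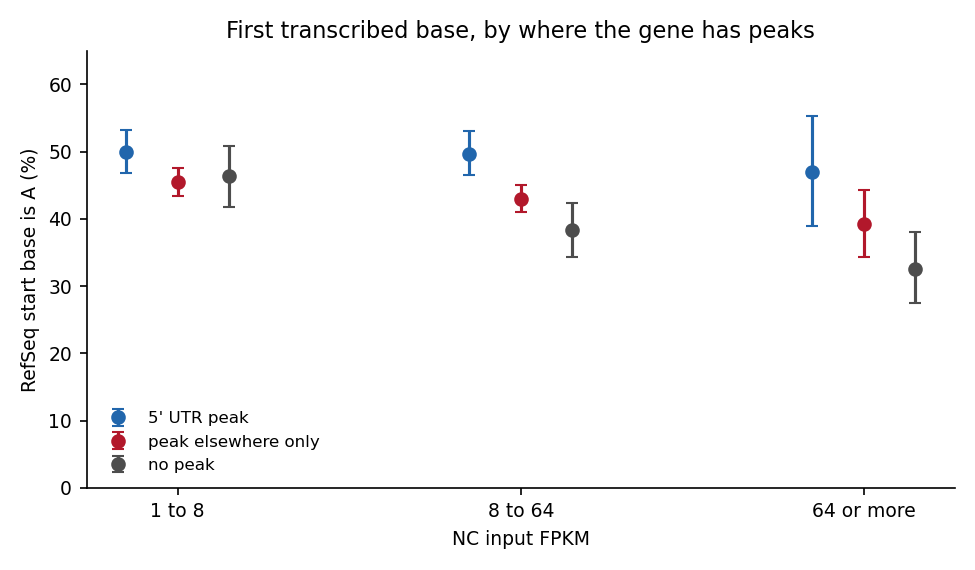
Share of genes whose RefSeq first transcribed base is A (vertical axis, percent) in 3 ranges of control input FPKM (horizontal axis), for genes with a 5' UTR peak (blue), with peaks elsewhere only (red) and without a peak (grey). Points are shares and bars exact 95% intervals: at 64 FPKM or more the shares are 47.0%, 39.2% and 32.6%, and at 1 to 8 FPKM 50.0%, 45.5% and 46.3%.

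Short motifs near the start did not separate the classes. GGACT, a form of the m6A motif read on the transcript strand, lay in the first 50 transcribed bases of 5.29% of genes with a 5' UTR peak, 4.51% of those with peaks elsewhere and 4.95% of those without, against 4.90% of all RefSeq starts. GGAC, which every GGACT contains, lay in 19.8%, 19.6% and 19.6%, against 18.9%. All intervals between the 3 classes overlapped. These 4 measures were all that were computed on the start sequences, and they were added after the peak results were known.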

How the data were processed

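The control input gave transcript levels as FPKM, which the authors computed per gene and deposited in a table of 14416 genes. The control peak list gives for each peak its position, feature, gene, p-value and false discovery rate from the authors, per the file headers, and its enrichment in RIP over input is a ratio (fold) deposited by the authors. Build GRCh38.p13 comes from the submitters' processing notes, which also list ChIPseeker, deepTools, HISAT, HISAT2 and Trimmomatic without roles. What called the peaks, at which thresholds, and what counted the reads is not given in the sources used here. Folds ran from 1.50 to 55.0, and 115 peaks had a false discovery rate above 0.05. The labels' protocol describes frozen tissue although the samples are cultured cells.

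The 22199 rows held 132 repeats, and 18 peaks assigned to more than 1 gene count for each of them. Starts were raised to count from 1. Input depth and exonic lengths were recovered from the FPKM values of both inputs (the MA column served only for this) as the smallest whole reads, so lengths are minima. The share at like FPKM is the mean peak share of all genes in doubling FPKM bins. Matching on length as well used the length classes within the FPKM classes 1 to 8, 8 to 64 and 64 or more. Genes below 1 FPKM stayed out of comparisons. The recovery and the share at like FPKM were tested on simulated data. Python 3.11.15, pandas 2.3.3 and SciPy 1.17.1 were used.

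Members, gene lists and rules were chosen with earlier results of these data known. The named genes are the 10 with the most peaks and the 5 most enriched peaks per feature at 5 FPKM or more, the 10 most abundant with and without a peak, the 5 with the largest span and no peak, all m6A writers, erasers, readers and assay controls, and in each other list up to 4 members with the most peaks and up to 3 abundant members without one. Some genes that this rule takes are not reported here. Further members, such as drivers and lineage markers, were named after their values were seen. The start-base and motif measures and the length classes were added after seeing the data. So was the rule for printed sequences, which takes the highest FPKM, since a rule on the most enriched 5' UTR peaks had matched only 2 genes. Printing only starts that fit the base difference was tried and dropped. Alternatives were another FPKM filter, fold minimums of 2 and 4, merged peaks, another pseudocount and other matching.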

Additional observations from a re-analysis of the deposited data

Results flagged for a closer look

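In the control list, 183 peak assignments fell in 111 genes that the gene table does not hold, so no transcript level stands beside them and they entered no comparison. Of these genes, 37 carried joined symbols of neighbouring genes (71 assignments), 9 lay on the mitochondrial chromosome (11) and 65 were others (101). The mitochondrial peaks, all annotated Exon, had folds from 2.26 (CYTB) to 4.10 (ND5). No control without antibody was used here to set a background for these peaks.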

How the results depend on the processing

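The methylated share, 83.7% at 1 FPKM or more, was 69.1% over all genes above 0 FPKM, 82.6% at 5 FPKM or more, 79.1% with peaks of fold 2 or more and 49.9% with fold 4 or more. With fold 2 and 4, chosen for this result after seeing the data, the share at 8 to 16 FPKM was 85.9% and 56.1%, and at 256 or more 34.4% and 3.77%. The decline toward abundant genes was thus steeper, but a fold minimum takes more peaks where folds are lower. The 90th percentile of fold was 3.55 at 256 FPKM or more, against 6.40 at 8 to 16. The steeper decline is therefore no separate evidence on abundant genes. Genes with several peaks were 62.5% of peak genes, 58.5% at fold 2 or more, and 62.5% with overlapping peaks merged. At fold 4 or more the shares of peaks were 12.8% in the 5' UTR, 5.25% over start codons, 32.7% in Exon, 4.40% over stop codons and 44.8% in the 3' UTR. At fold 2 or more Exon had 32.9% and the 3' UTR 43.1%. With 1 peak per gene, start codon had 6.49%, Exon 25.8%, stop codon 4.40% and 3' UTR 48.7%, and weighted by exonic length they had 5.55%, 32.5%, 4.55% and 43.3%. The order of the 5 features held in each of these settings. The log2 difference in level between genes without and with a peak, 0.89, was 1.22 at fold 2 or more. Of 26 lists, 5 instead of 3 stood above the share at like FPKM with fold 2 or more: immediate early, chromatin and polycomb genes came in and tRNA synthetases dropped out. When exonic length was matched, in coarser FPKM classes, 4 instead of 2 stood below it, with glycolysis and lysosome genes added. The cause of these shifts was not tested. None of the 5 lists set apart changed direction. No paired analysis was possible because each kind of library exists once per condition, and leaving out a replicate was not possible for the same reason. Genes at 1 to 2 FPKM had a median of 249 recovered reads, and the part of depth in missing peaks was not tested.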

Other observations

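Peaks were also listed in genes with little or no input signal. At 0 FPKM, 24 of 828 genes (2.90%) had 53 peaks, and above 0 and under 1 FPKM 984 genes had 2054. FLG, the skin barrier protein filaggrin, was listed at 0 FPKM with 11 peaks, all in Exon, up to fold 7.00. It was picked out after its value was seen.

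Across chromosomes the methylated share of expressed genes ran from 78.5% (74.9 to 81.8) on chromosome 11 to 88.3% (84.3 to 91.6) on chromosome 15. The median exonic length was 2964 bp on chromosome 11 and 4206 bp on chromosome 15, and the part of length in this spread was not tested.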
